A study of Mus musculus with 3 samples.

Results

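The interferon-inducible GTPases described here were 10 genes measured in mouse spleen cells, chosen by name from the gene symbols of the deposited files (10 of 33696 genes, all found). Gbp2, Gbp3, Gbp4, Gbp5, Gbp7 and Gbp9 encode guanylate-binding proteins (GBPs), and Irgm1, Irgm2, Igtp and Ifi47 encode immunity-related GTPases (IRGs). The series holds 3 single-cell RNA libraries, 1 from a MASH spleen sample on a Phe-free regimen (MASH-Phe-free), 1 from a MASH spleen sample and 1 from a Chow spleen sample. MASH is metabolic dysfunction-associated steatohepatitis and Phe is phenylalanine. The series text describes C3H mice moved from a high-fat diet to a modified diet low in methionine and choline, and HCA-1 liver cancer cells placed under the skin, but that text is about bulk RNA of tumours; for the spleen libraries, the sources used here give neither diets nor animal numbers nor tumour status. With 1 library per group there is no replicate, no test between groups was possible and none was run. Intervals below are exact Poisson, conditional Poisson or Clopper-Pearson 95% intervals, and they cover counting error only.

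Interferon-gamma, made mainly by NK cells and T cells, binds a receptor of the chains Ifngr1 and Ifngr2 and activates the kinases Jak1 and Jak2. The signal reaches target promoters at gamma-activated sites (GAS), and the factor Irf1, itself induced by interferon-gamma, binds interferon-stimulated response elements (ISRE), through which type I interferon also acts. GBPs and IRGs are among the most inducible products of this pathway in mice. The effector GTPases load onto vacuoles that hold parasites or bacteria and break them open, whereas Irgm1, Irgm2 and Igtp (Irgm3) are the regulatory IRGs that keep effector IRGs off the cell's own membranes.

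Promoter sequence was available for 8 of the 10 members, as the 250 bases before the start site in RefSeq on GRCm38.p6. The counts were made on GRCm39, so these coordinates serve only to name the windows. The motifs searched on both strands were TTCNNNGAA for GAS and, for an ISRE-like element, GAAA followed by 2 bases of any kind and GAAA again. A GAS match was present in 7.02% of the 32851 windows of this length, an ISRE-like match in 2.98% and both in 0.332%. Among the 8 members with a window, 4 held a GAS match, 7 an ISRE-like match and 4 both. Gbp5, Gbp7, Igtp and Irgm2 held both, Gbp2, Gbp3 and Irgm1 held the ISRE-like match alone, and no match to either was found for Ifi47 in this window. Gbp2 and Gbp5 are shown because they differ in which motifs they hold, and Igtp and Irgm2 because they hold the same adjacent pair. Capitals mark the matches, and a match that starts with TTTC is the ISRE-like element read on the other strand.
Gbp2: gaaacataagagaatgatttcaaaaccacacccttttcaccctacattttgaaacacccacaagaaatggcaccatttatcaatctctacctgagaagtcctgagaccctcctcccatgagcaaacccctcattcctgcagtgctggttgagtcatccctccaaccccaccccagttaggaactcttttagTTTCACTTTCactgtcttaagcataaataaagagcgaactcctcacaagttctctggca
Gbp5: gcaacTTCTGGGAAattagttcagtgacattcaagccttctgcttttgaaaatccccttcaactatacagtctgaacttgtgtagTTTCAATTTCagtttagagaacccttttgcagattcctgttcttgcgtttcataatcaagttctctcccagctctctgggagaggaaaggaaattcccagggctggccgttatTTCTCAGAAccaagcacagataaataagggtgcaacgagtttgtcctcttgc
Igtp: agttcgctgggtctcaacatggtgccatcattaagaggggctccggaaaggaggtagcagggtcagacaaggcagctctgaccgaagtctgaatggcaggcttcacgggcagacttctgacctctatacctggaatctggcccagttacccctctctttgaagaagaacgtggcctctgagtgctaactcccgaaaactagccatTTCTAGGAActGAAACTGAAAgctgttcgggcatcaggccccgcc
Irgm2: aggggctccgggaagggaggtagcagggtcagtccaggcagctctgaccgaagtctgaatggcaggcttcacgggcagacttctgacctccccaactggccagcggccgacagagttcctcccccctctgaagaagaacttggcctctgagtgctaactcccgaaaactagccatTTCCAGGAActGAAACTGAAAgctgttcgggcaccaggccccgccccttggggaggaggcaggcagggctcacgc
The Gbp2 window lies at chr3:142620413-142620662 and the Gbp5 window at chr3:142496684-142496933, both on the plus strand. The Igtp window lies at chr11:58199306-58199555 and the Irgm2 window at chr11:58214727-58214976, again on the plus strand. In Gbp2 the ISRE-like match sat 59 to 50 bases before the start site. Gbp5 carried GAS matches 245 to 237 and 52 to 44 bases before it, with the ISRE-like match at 165 to 156. In Igtp the GAS match at 45 to 37 was followed closely by the ISRE-like match at 34 to 25, and the same pair stood at 75 to 67 and 64 to 55 in Irgm2. A match describes the letters only and is no evidence of binding.

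The libraries held 16778 MASH-Phe-free, 19219 MASH and 16495 Chow barcodes, with medians of 6263, 5873 and 7169 unique molecular identifiers (UMIs, 1 per captured RNA molecule). After filters on genes, UMIs and mitochondrial share and removal of called doublets, 15579, 17330 and 15647 cells were analysed. The libraries shared 251 barcodes, and no result for mature neutrophils below changed its call without them. Cells were clustered over all libraries with the members and the other listed interferon genes left out, and clusters were named from marker genes as X-like. All 11 neutrophil markers were at least 32.3-fold higher in neutrophil-like cells than in the other cells. Levels are counts per 1000000 UMIs (CPM), taken from the UMI sum of each class in each library, so that they compare a gene between classes and libraries but not genes with each other. A ratio is called past the fold when it is at least 1.5 or at most its inverse, its interval lies on that side of 1 and the libraries compared hold at least 50 UMIs of the gene together. In a sum over cells, fewer cells that express a gene and less RNA per cell cannot be told apart. GBPs are close relatives of each other, and the sources used here do not say how reads shared between them were assigned.

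The members differed in the cell classes where each was highest. T-like and monocyte-like cells held high summed levels in every library. The 10 members together reached 1276 CPM in MASH-Phe-free, 1187 CPM in MASH and 1224 CPM in Chow T-like cells. Monocyte-like cells held 1322, 1177 and 1056 CPM in the same order of libraries. Plasma-like cells, which devote their RNA to immunoglobulin, held the lowest sums, at 91.4 CPM in MASH-Phe-free, 113 CPM in MASH and 109 CPM in Chow.

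**Figure D1:**
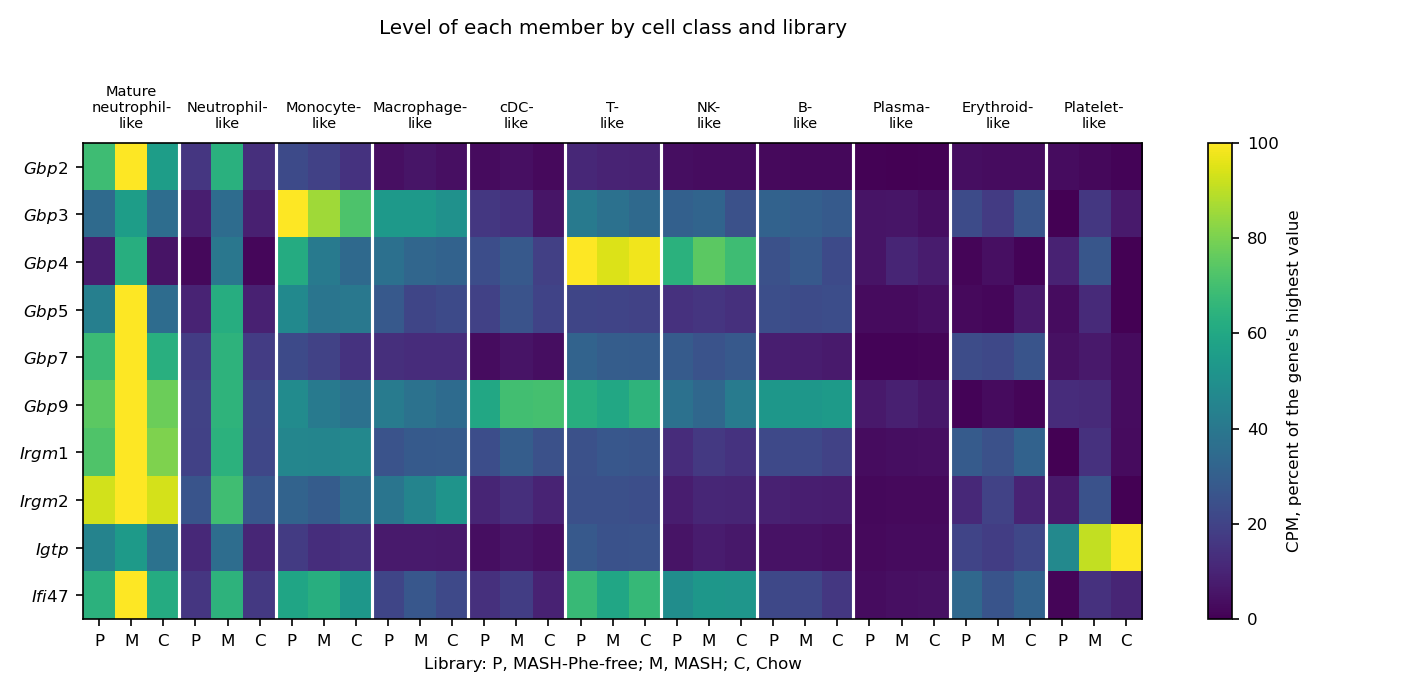
Heat map of the level of each member (colour, CPM as a percent of the gene's own highest value) in the 10 cell classes and in mature neutrophil-like cells of the MASH-Phe-free (P), MASH (M) and Chow (C) libraries. Neutrophil-like cells of the MASH library stand above those of the other libraries for all 10 members, while T-like and B-like cells of the 3 libraries lie close together.

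Gbp4 was highest in T-like cells, at 115 CPM in MASH-Phe-free, 109 CPM in MASH and 112 CPM in Chow, and next in NK-like cells at 73.4, 85.8 and 79.3 CPM. In MASH-Phe-free the NK-like and monocyte-like (70.8 CPM) intervals overlapped. Gbp4 was near 0 in neutrophil-like cells of MASH-Phe-free (2.62 CPM) and Chow (2.22 CPM), against 45.8 CPM in MASH. Gbp3 was instead highest in monocyte-like cells, at 125 CPM in MASH-Phe-free, 107 CPM in MASH and 89.6 CPM in Chow, and next in macrophage-like cells at 67.3, 67.0 and 62.9 CPM. Its monocyte-like and macrophage-like intervals did not overlap in any library.

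Gbp9 was shared by conventional dendritic cell (cDC)-like, T-like and B-like cells. In cDC-like cells it stood at 153 CPM in MASH-Phe-free, 178 CPM in MASH and 179 CPM in Chow, and in T-like cells at 159, 152 and 166 CPM. The cDC-like and T-like intervals overlapped in MASH-Phe-free and Chow, and in MASH the neutrophil-like level of 165 CPM lay between them. Erythroid-like cells were nearly without it, at 2.94, 7.70 and 3.76 CPM. Gbp5, which in mice promotes inflammasome activation, was highest in monocyte-like cells of MASH-Phe-free (82.2 CPM) and Chow (68.8 CPM). In MASH its highest level was in neutrophil-like cells (108 CPM), above monocyte-like cells at 67.0 CPM. Gbp2, a GBP that coats bacterial and parasite vacuoles, had the same change of leading class, with 216 CPM in MASH-Phe-free and 142 CPM in Chow monocyte-like cells but 608 CPM in MASH neutrophil-like cells. In Chow the Gbp2 intervals of monocyte-like and neutrophil-like (129 CPM) cells overlapped. Gbp7 was highest in T-like cells of MASH-Phe-free (185 CPM) and Chow (170 CPM), where NK-like cells did not stand apart, and in neutrophil-like cells of MASH (377 CPM).

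Among the IRGs, Irgm1, a regulator of autophagy and of macrophage resistance to mycobacteria, was highest in monocyte-like cells of MASH-Phe-free (131 CPM) and Chow (134 CPM), against 130 CPM in MASH, where neutrophil-like cells held 184 CPM. Irgm2 was highest in macrophage-like cells of MASH-Phe-free (62.9 CPM) and Chow (84.0 CPM), and in neutrophil-like cells of MASH (113 CPM). In MASH-Phe-free the Irgm2 intervals of macrophage-like and monocyte-like (51.4 CPM) cells overlapped. Ifi47 (IRG-47) was highest in T-like cells of MASH-Phe-free (289 CPM) and Chow (288 CPM), and in MASH the neutrophil-like, monocyte-like and T-like levels of 277, 269 and 254 CPM overlapped in pairs of neighbours. Igtp was the exception. Its highest level was in platelet-like cells, at 380 CPM in MASH-Phe-free, 735 CPM in MASH and 808 CPM in Chow, from 70, 72 and 91 UMIs. In MASH, 1 of 67 platelet-like cells held 42.2% of the class's member UMIs.

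Subsets of these classes differed within each library. Regulatory T-like cells held more Gbp3 than CD4 T-like cells, at 159 CPM against 23.5 CPM in MASH-Phe-free, 151 against 22.4 CPM in MASH and 134 against 22.6 CPM in Chow. For Gbp7 the regulatory T-like levels were 409, 428 and 394 CPM in MASH-Phe-free, MASH and Chow, and the CD4 T-like levels were 131, 129 and 132 CPM. The gap was smaller for Gbp4, with 144, 163 and 150 CPM in regulatory T-like and 115, 111 and 116 CPM in CD4 T-like cells, although the intervals did not overlap in any library. Type 1 cDC-like cells, the cross-presenting kind, had 0 Gbp7 UMIs in all 3 libraries, which at 3 counts allows up to 5.95 CPM in MASH-Phe-free, 4.25 CPM in MASH and 3.61 CPM in Chow. Type 2 cDC-like cells held 26.0, 44.8 and 36.5 CPM of it. Irgm1 had overlapping intervals between these dendritic subsets in each library, at 73.3, 109 and 89.1 CPM in type 1 and 75.6, 100 and 74.4 CPM in type 2 cDC-like cells, and so did Irgm2 on 7, 12 and 11 type 1 UMIs.

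Immature neutrophil-like cells, which fill their granules, were nearly without the GBPs, and mature neutrophil-like cells held much of them. Gbp2 stood at 2.65 CPM in MASH-Phe-free, 2.87 CPM in MASH and 3.48 CPM in Chow immature cells, against 661, 960 and 536 CPM in mature cells. The 10 members summed to 60.3, 61.6 and 74.4 CPM in immature and to 2371, 3431 and 2168 CPM in mature cells. The MASH library held 34 immature and 685 mature neutrophil-like cells, against 305 and 927 in MASH-Phe-free and 224 and 561 in Chow. In the whole neutrophil-like class all 10 members were past the fold upwards in MASH over Chow (15.2% of 8583 genes upwards, 22.0% downwards), and all 10 downwards in MASH-Phe-free over MASH (17.3% of 9352 genes downwards, 22.1% upwards). With clusters weighted alike 7 members turned below 1 in MASH over Chow and 6 above 1 in MASH-Phe-free over MASH. The whole class held 1715 MASH-Phe-free, 832 MASH and 1009 Chow cells, so some had neither subset name. The make-up of the class differed between the libraries, and its part in these ratios was not tested. The mature cells are therefore described on their own.

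In mature neutrophil-like cells every member had a MASH over Chow ratio above 1, and 6 of 10 were past the fold, all GBPs but Gbp9 and the IRG Ifi47. Of all 5649 genes tested there, 4.74% were past the fold upwards and 12.5% downwards. The median ratio was 1.57 over the members and 0.903 over all genes. Gbp4 had the widest gap: 72.1 CPM in MASH from 211 UMIs, against 6.23 CPM in Chow from 14 UMIs, a ratio of 11.6 (6.76 to 21.6). In MASH-Phe-free it held 9.28 CPM from 33 UMIs. The MASH library alone was high, and the intervals of the MASH-Phe-free (6.39 to 13 CPM) and Chow (3.40 to 10.4 CPM) levels overlapped.

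Gbp5 showed the same order with a smaller gap. Its level was 74.2 CPM in MASH-Phe-free, 173 CPM in MASH and 60.9 CPM in Chow, with a MASH over Chow ratio of 2.83 (2.34 to 3.45). Gbp2 stood at 661 CPM in MASH-Phe-free, 960 CPM in MASH and 536 CPM in Chow, so that MASH-Phe-free lay above Chow with a ratio of 1.23 (1.15 to 1.32), short of the fold. MASH over Chow was 1.79 (1.67 to 1.92) for this gene. Gbp3 had 43.0 CPM in MASH-Phe-free, 69.4 CPM in MASH and 44.5 CPM in Chow, and Gbp7 had 398, 583 and 369 CPM. Their MASH over Chow ratios were 1.56 (1.22 to 2.0) and 1.58 (1.45 to 1.72). Ifi47 had 277 CPM in MASH-Phe-free, 430 CPM in MASH and 265 CPM in Chow, a MASH over Chow ratio of 1.62 (1.47 to 1.79).

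The regulatory IRGs and Gbp9 were not past the fold in MASH over Chow. Irgm1 held 207 CPM in MASH-Phe-free, 287 CPM in MASH and 231 CPM in Chow, and its MASH over Chow ratio of 1.24 (1.11 to 1.39) was not past the fold. Irgm2 was nearly level, at 151 CPM in MASH-Phe-free, 162 CPM in MASH and 152 CPM in Chow, a ratio of 1.07 (0.928 to 1.23) whose interval held 1. Igtp stood at 361, 441 and 306 CPM, with a MASH over Chow ratio of 1.44 (1.31 to 1.58). Gbp9 had 190, 254 and 197 CPM and a ratio of 1.29 (1.14 to 1.45). Igtp and Irgm2, with ratios of 1.44 and 1.07, are the members whose promoters above hold the same adjacent pair of matches. Any link between the matches and the ratios was not tested.

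**Figure D2:**
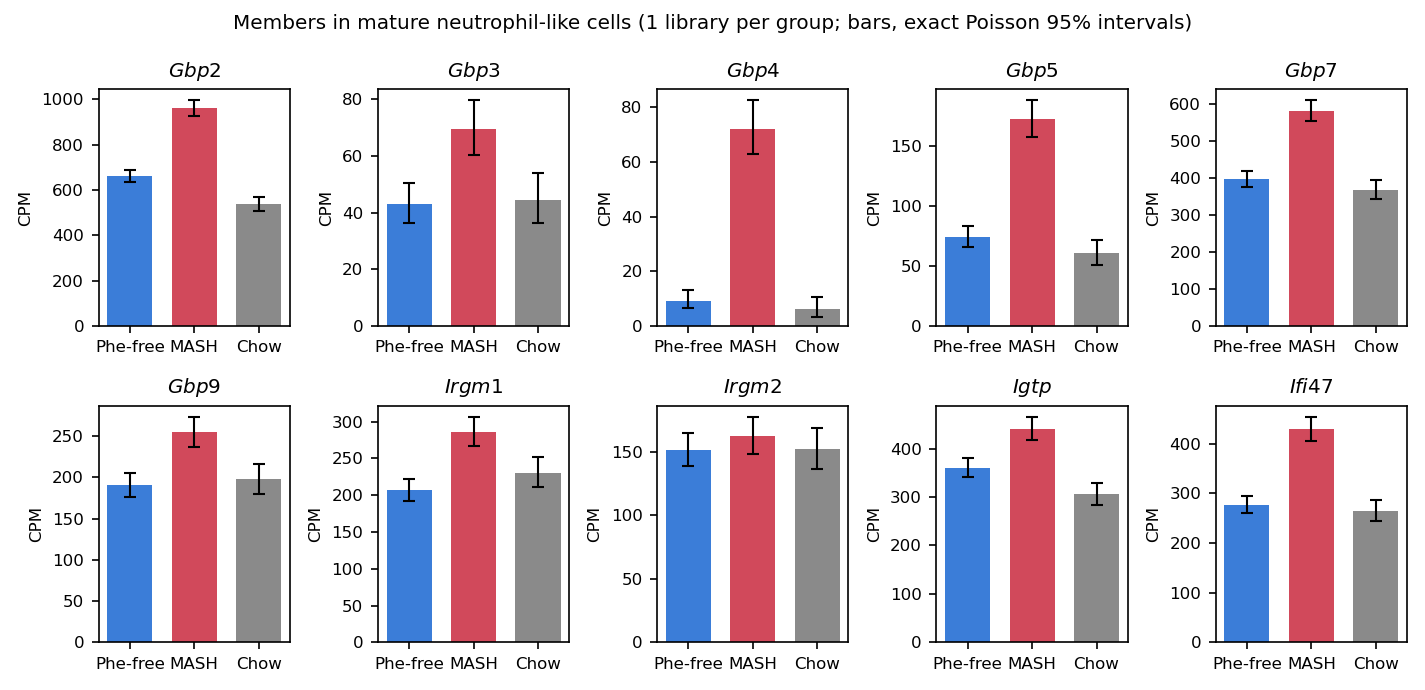
Level of each member (CPM, linear axis from 0, a scale for each gene) in mature neutrophil-like cells of the MASH-Phe-free, MASH and Chow libraries, with exact Poisson 95% intervals. Gbp4 shows the widest gap, at 72.1 CPM in MASH against 6.23 CPM in Chow, and Irgm2 the narrowest.

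In MASH-Phe-free over MASH, every member had a ratio below 1 in mature neutrophil-like cells and 4 of 10 were past the fold downwards (3.72% of 6160 genes downwards, 13.3% upwards). These were Gbp4 with a ratio of 0.129 (0.0863 to 0.186), Gbp5 with 0.430 (0.369 to 0.50), Gbp3 with 0.620 (0.499 to 0.768) and Ifi47 with 0.644 (0.591 to 0.70). Gbp7 at 0.682 and Gbp2 at 0.689 lay just short of it. The median was 0.685 over the members and 1.11 over all genes, and 7 members were past the fold downwards when the median gene was set to a ratio of 1. In MASH-Phe-free over Chow none of the 9 members with enough UMIs was past the fold in either direction (4.47% of 6111 genes upwards, 4.17% downwards). Their ratios ran from 0.898 for Irgm1 to 1.23 for Gbp2. The 3 comparisons share libraries, so they are not independent of each other.

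The 11 neutrophil markers summed to 113882 CPM in MASH-Phe-free, 118924 CPM in MASH and 89466 CPM in Chow, with none at 0. The T cell markers summed to 80.1, 48.2 and 60.9 CPM, the NK cell markers to 2.25, 5.47 and 5.34 CPM (5, 4 and 4 of 10 markers at 0) and the B cell markers to 76.5, 98.1 and 98.7 CPM. Monocyte markers stood at 545 CPM in MASH-Phe-free, 678 CPM in MASH and 536 CPM in Chow, and macrophage markers at 1270, 1103 and 1178 CPM. Basophil markers summed to 1150 CPM in MASH-Phe-free, 1561 CPM in MASH and 1285 CPM in Chow, with 6, 4 and 6 of 8 at 0, and cDC markers to 829, 719 and 814 CPM. Erythroid markers were at 1627, 906 and 289 CPM, and the 8 markers of immature neutrophils at 953, 1142 and 2099 CPM. The part of any of these in the member levels was not tested. Median depth per mature neutrophil-like cell was 3820 UMIs in MASH-Phe-free, 4172 in MASH and 3966 in Chow. Of 7 RNA and cell stress genes tested, 3 were past the fold downwards in MASH over Chow (12.5% of all genes). In MASH-Phe-free over MASH 0 were past it in either direction, and 1 was downwards in MASH-Phe-free over Chow (4.17% of all genes). Among the stress genes Fos stood at 2135 CPM in MASH-Phe-free, 2141 CPM in MASH and 3464 CPM in Chow.

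More mature neutrophil-like cells carried each of 9 members in MASH than in Chow after every cell was thinned to 2787 UMIs, and Irgm2 was at 30.2% in each. Shallower cells were left out, 114 in MASH-Phe-free, 52 in MASH and 51 in Chow. Gbp4 was found in 2.09% (1.22% to 3.33%) of MASH-Phe-free, 12.8% (10.3% to 15.7%) of MASH and 1.37% (0.554% to 2.81%) of Chow cells. Without thinning the Gbp4 shares were 2.80%, 14.7% and 2.14%. Gbp2 was found in 57.1%, 67.1% and 54.7%, and Gbp5 in 10.7%, 22.3% and 8.63% of thinned cells. In plasma-like cells, which hold little of the family, thinning to 1869 UMIs left Gbp2 in 1.06% of MASH-Phe-free, 1.20% of MASH and 0.694% of Chow cells. Whether these UMIs came from free RNA or from the cells themselves was not tested.

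Members were also found together in more cells. Thinned MASH cells held UMIs of 3.92 members on average, against 2.88 in Chow, and MASH-Phe-free cells held 3.0. At least 5 members were found in 25.7% (22.7% to 28.9%) of MASH-Phe-free, 40.3% (36.4% to 44.2%) of MASH and 23.1% (19.5% to 27.0%) of Chow cells. Cells with no member at all made up 12.9%, 7.42% and 13.1%. The spread within each library was wide, so the MASH library held mature neutrophil-like cells with no member and others with 10.

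**Figure D3:**
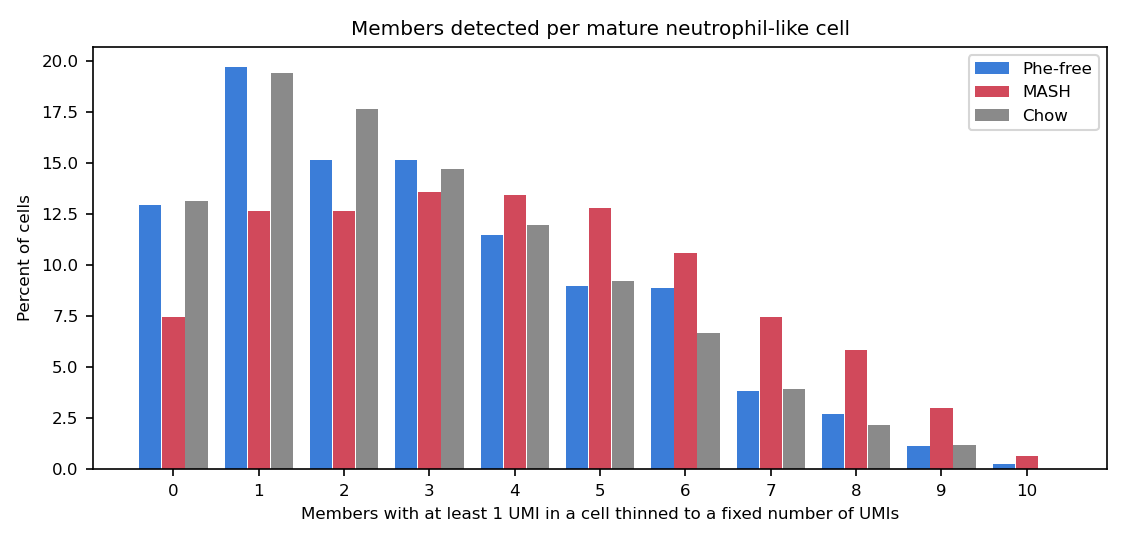
Share of mature neutrophil-like cells (percent) by the number of the 10 members with a UMI, after thinning to 2787 UMIs per cell, in the MASH-Phe-free, MASH and Chow libraries. The MASH distribution is shifted to the right, with 40.3% of cells at 5 or more members against 23.1% in Chow and 25.7% in MASH-Phe-free.

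Mature neutrophil-like cells fell into 5 sub-clusters, and the share of 1 of them differed widely between libraries. Listed interferon genes were left out of this clustering, although interferon-regulated genes outside the lists, such as Trim30c, could still steer it. The sub-cluster led by Ifit3, Ifit2 and Ifit1, classic interferon-induced antiviral genes, made up 14.1% (12.0% to 16.5%) of MASH-Phe-free, 51.2% (47.4% to 55.0%) of MASH and 6.06% (4.23% to 8.37%) of Chow mature cells, or 131, 351 and 34 cells. It held the highest summed member level in each library among the sub-clusters of at least 20 cells, at 5208 CPM in MASH-Phe-free, 5031 CPM in MASH and 6214 CPM in Chow. The next, led by Pmaip1 (Noxa, a pro-apoptotic BCL2 family gene), held 2376, 2866 and 3024 CPM and took 38.3%, 15.5% and 19.6% of the cells. The Stfa2-led sub-cluster, named for a stefin protease inhibitor, held 1461, 1374 and 1781 CPM and took 6.36%, 10.9% and 51.7%. A sub-cluster led by haemoglobin genes held 1591, 1265 and 1266 CPM and took 40.02%, 22.0% and 17.5%.

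Within the Ifit3-led sub-cluster most members did not differ upwards between MASH and Chow. Gbp2 stood at 1507 CPM in MASH-Phe-free, 1426 CPM in MASH and 1497 CPM in Chow there, and Gbp5 at 235, 272 and 280 CPM. Ifi47 was lower in MASH than in Chow, at 707 against 1225 CPM (ratio 0.577), and so was Irgm2 (ratio 0.613). Gbp4 alone remained past the fold upwards, at 111 CPM in MASH against 42.0 CPM in Chow, with a ratio of 2.65 (1.19 to 7.32). The Chow value rests on 6 UMIs in 34 cells, against 166 UMIs in 351 MASH cells. MASH-Phe-free held 25.9 CPM of Gbp4, from 13 UMIs. In the Pmaip1-led sub-cluster Gbp4 had 13.2 CPM in MASH-Phe-free, 83.8 CPM in MASH and 7.08 CPM in Chow, from 17, 33 and 3 UMIs. Within the sub-clusters no share of all genes past the fold is given.

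**Figure D4:**
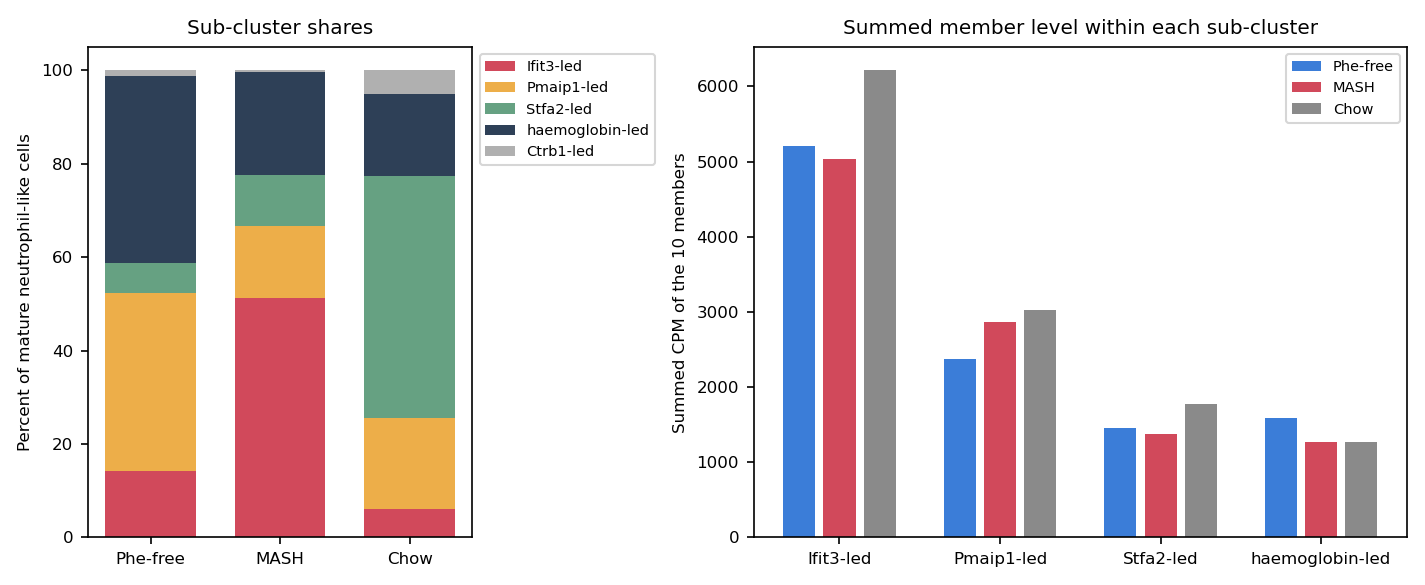
Sub-clusters of mature neutrophil-like cells in the MASH-Phe-free, MASH and Chow libraries, with the share of cells in each (percent, stacked bars, left) and the summed level of the 10 members within each (CPM, right; the smallest sub-cluster, led by Ctrb1, has no bar there). The Ifit3-led sub-cluster takes 51.2% of MASH cells against 6.06% of Chow cells, and its summed level is 5031 CPM in MASH and 6214 CPM in Chow.

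Left without the Ifit3-led cells, mature neutrophil-like cells had 2 members past the fold in MASH over Chow. No share over all genes is given for this setting, so the count has no background beside it. Gbp4 kept a ratio of 8.28 and Gbp5 one of 1.5, whereas Gbp2 stood at 1.01, Gbp3 at 0.894, Gbp7 at 0.869 and Ifi47 at 0.703. With the sub-clusters given the same weight in both libraries, Gbp4 was at 3.40, Gbp5 at 1.03 and Gbp2 at 0.958. Gbp4 was thus the member whose MASH over Chow ratio stayed above the fold in every one of the 17 alternatives, from 3.40 to 13. The alternatives on the fold and on the UMI minimum change only the call, so no ratio could move under them.

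The listed genes around the members were uneven in mature neutrophil-like cells. Interferon-gamma itself was a product of NK-like and T-like cells: Ifng held 52.7 CPM in MASH-Phe-free, 62.8 CPM in MASH and 41.6 CPM in Chow NK-like cells, and 10.1, 11 and 5.25 CPM in T-like cells. Mature neutrophil-like cells had 1, 0 and 0 Ifng UMIs, where 3 counts allow up to 1.03 CPM in MASH and 1.33 CPM in Chow. Both receptor chains were present there. Ifngr1 held 214 CPM in MASH-Phe-free, 206 CPM in MASH and 162 CPM in Chow, and Ifngr2 held 230, 231 and 206 CPM. Irf1 was not higher in MASH than in Chow, at 896 CPM in MASH-Phe-free, 788 CPM in MASH and 848 CPM in Chow. Of 10 signalling genes tested, only Socs1, the feedback inhibitor of Jak kinases, was past the fold upwards in MASH over Chow (4.74% of all genes). It stood at 39.7 CPM in MASH and 22.2 CPM in Chow (ratio 1.78, 1.27 to 2.54).

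Of 15 other GBP and IRG genes found, 6 had enough UMIs in MASH over Chow in mature neutrophil-like cells, and 5 were past the fold upwards and 1 downwards (4.74% and 12.5% of all genes). Gbp8 held 47.2 CPM in MASH and 19.1 CPM in Chow, a ratio of 2.47 (1.74 to 3.56). Tgtp1 and Tgtp2, near-identical copies whose reads may be split between them, had ratios of 2.17 and 1.73. The exception was Irgc1, at 29.7 CPM in MASH against 59.6 CPM in Chow. In MASH-Phe-free over MASH, 5 of 6 were past the fold downwards (3.72% of all genes), among them Tgtp1 at 0.439 and Gbp8 at 0.489.

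Of the other listed interferon-gamma targets, 7 of 26 tested genes were past the fold upwards and 0 downwards in MASH over Chow (4.74% and 12.5% of all genes). The median ratio of the 26 was 1.22. The chemokine gene Cxcl10 held 40.7 CPM in MASH and 7.56 CPM in Chow (ratio 5.38, 3.22 to 9.55), and the interleukin-18 decoy gene Il18bp held 86.5 and 39.6 CPM. The MHC class II genes Cd74 and H2-Aa were not higher, with ratios of 0.775 and 0.857. In MASH-Phe-free over MASH, 6 of 26 were past the fold downwards (3.72% of all genes), with Cxcl10 at 1.97 CPM in MASH-Phe-free against 40.7 CPM in MASH. The type I interferon response list overlaps in regulation with the members. It had 22 of 23 tested genes past the fold upwards in MASH over Chow (4.74% of all genes), with a median ratio of 2.51. In MASH-Phe-free over MASH 22 of 23 were past the fold downwards (3.72% of all genes), with a median of 0.512. Of this list, Ifit2, Ifit1 and Ifit3 had MASH over Chow ratios of 4.57, 3.44 and 3.42. The direction of the list was known from earlier results of these data. Of 14 tested ubiquitin, autophagy and galectin genes that act with the GTPases at vacuoles, 1 was past the fold upwards (Lgals8, 1.52) and 2 downwards in MASH over Chow, shares near those of all genes (4.74% and 12.5%), and 0 in either direction in MASH-Phe-free over MASH.

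Outside neutrophils few members differed. In MASH over Chow no member was past the fold in B-like, T-like, NK-like, monocyte-like, macrophage-like, plasma-like or platelet-like cells; in platelet-like cells only Igtp had enough UMIs. The shares of all genes past the fold upwards and downwards were 2.85% and 2.16% in B-like, 3.24% and 1.88% in T-like, 3.55% and 3.19% in NK-like and 3.05% and 3.49% in monocyte-like cells. They were 3.35% and 10.7% in macrophage-like, 1.90% and 16.0% in plasma-like and 19.7% and 13.8% in platelet-like cells. In cDC-like cells 3 of 10 were past the fold upwards (5.56% of 9364 genes upwards, 2.50% downwards). The named subsets of this class were 104 type 1 and 161 type 2 cells in MASH-Phe-free, 156 and 167 in MASH, and 162 and 103 in Chow. The part of this make-up in the member ratios was not tested. In cDC-like cells Gbp3 held 18.3 CPM in MASH and 6.87 CPM in Chow, a ratio of 2.67 (1.67 to 4.44). Ifi47 held 78.8 and 41.2 CPM (1.91), and Gbp2 held 41.0 and 23.9 CPM (1.72). Gbp7 (0.665) and Igtp (0.636) were past the fold downwards in these cells in MASH-Phe-free over MASH (4.27% of 9425 genes), although Gbp7 was at 1.06 with cells weighted alike and at 1.09 with clusters weighted alike. Gbp3 was not past the fold there, at 20.04 CPM in MASH-Phe-free and 18.3 CPM in MASH. Gbp3 in cDC-like cells therefore stood past the fold in MASH-Phe-free over Chow as well, with a ratio of 2.92 (1.80 to 4.90) (4.52% of 9029 genes upwards).

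**Figure D5:**
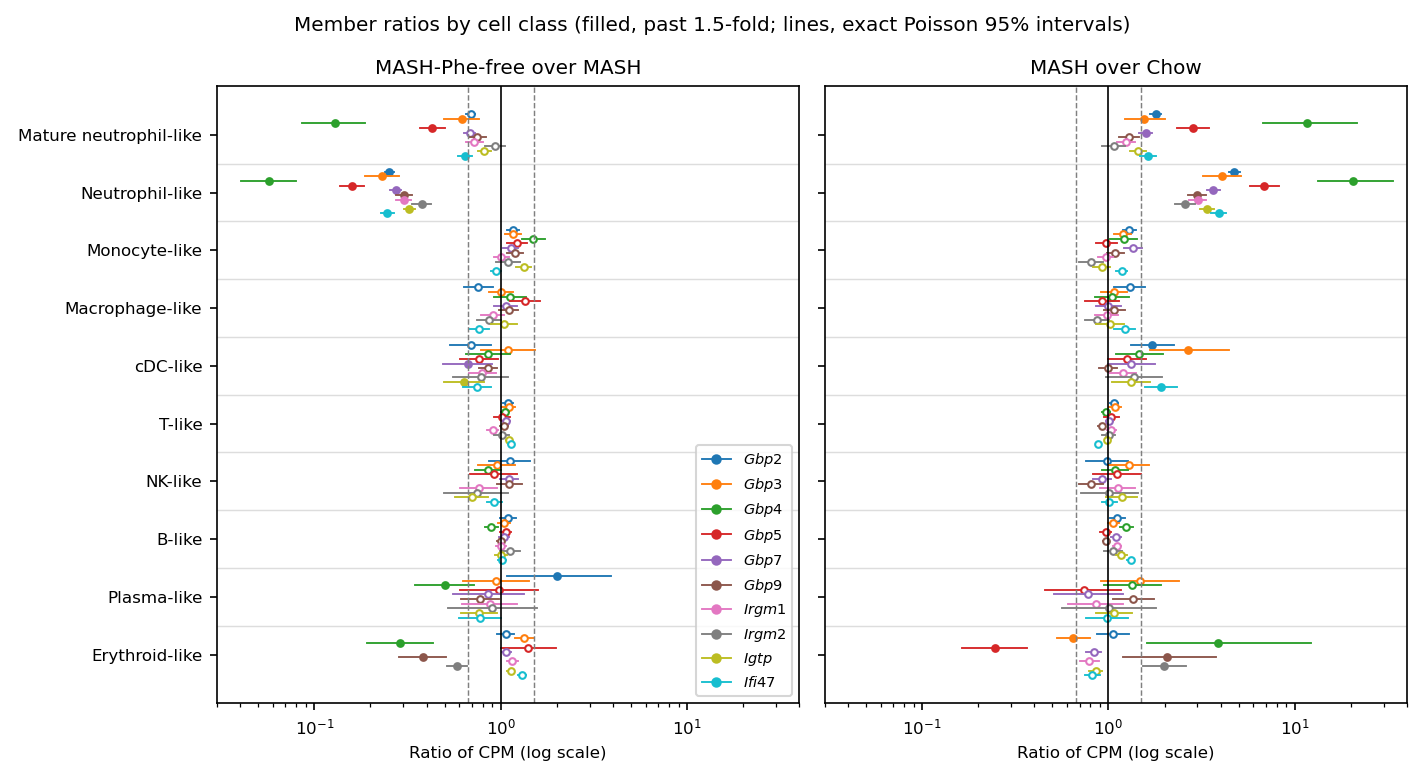
Ratio of member levels (log axis) by cell class for MASH-Phe-free over MASH and for MASH over Chow, with conditional Poisson 95% intervals; filled points are past the fold and dashed lines mark 1.5 and its inverse. Ratios in B-like and T-like cells lie inside the dashed lines, and among mature neutrophil-like ratios Gbp4 lies farthest out, at 11.6 in MASH over Chow.

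In monocyte-like cells the order of the libraries varied by member. Gbp2 held 216 CPM in MASH-Phe-free, 185 CPM in MASH and 142 CPM in Chow, Gbp4 held 70.8, 47.3 and 39.3 CPM and Gbp7 held 130, 115 and 85.0 CPM. The MASH-Phe-free library was highest for each, as it was for Gbp3, Gbp5, Gbp9 and Igtp, whereas Ifi47 was highest in MASH (253 CPM in MASH-Phe-free, 269 CPM in MASH and 228 CPM in Chow) and Irgm1 and Irgm2 in Chow. Gbp2, Gbp4 and Gbp7 were past the fold upwards in MASH-Phe-free over Chow (2.35% of 9958 genes), with ratios of 1.52 (1.40 to 1.64), 1.80 (1.56 to 2.08) and 1.53 (1.38 to 1.69). In classical monocyte-like cells, the inflammatory Ly6c2-high kind, Gbp2, Gbp4 and Gbp5 were past the fold in MASH over Chow (1.52, 1.69 and 1.61; 3.65% of 7443 genes) and also in MASH-Phe-free over Chow (1.55, 1.93 and 1.75; 2.17% of 7841 genes). Gbp2 stood there at 256 CPM in MASH-Phe-free, 252 CPM in MASH and 165 CPM in Chow. In nonclassical monocyte-like cells, which patrol vessels, the MASH library was instead the lowest. Gbp4 held 56.7 CPM in MASH-Phe-free, 25.3 CPM in MASH and 29.6 CPM in Chow, and 4 members (Gbp3, Gbp4, Gbp5 and Gbp7) were past the fold upwards in MASH-Phe-free over MASH (2.53% of 7075 genes), with ratios from 1.65 to 2.24. Whether these subsets differ in their ratios was not tested.

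Erythroid-like members went both ways, and this class lay in different clusters by library. A haemoglobin-rich cluster gave it 47 MASH-Phe-free, 432 MASH and 11 Chow cells, and the 13 erythroid markers summed to 20751 CPM in MASH-Phe-free, 123339 CPM in MASH and 19486 CPM in Chow. The part of this in the member ratios was not tested. In MASH over Chow, Gbp4 (3.88), Gbp9 (2.05) and Irgm2 (1.98) were past the fold upwards (5.27% of 9786 genes) and Gbp3 (0.648) and Gbp5 (0.245) downwards (17.6%). The Chow value rests on 100 cells with a median of 14670 UMIs, against 896 cells with a median of 7226 in MASH, and for Gbp4 on 5 UMIs. Gbp9 and Gbp5 rest on 15 and 48 Chow UMIs. With every cell given the same weight Gbp4 was at 0.895 and Gbp9 at 0.344, and with clusters weighted alike Gbp4 was at 0.232, Gbp9 at 0.176 and Gbp3 at 1.49. Gbp4 (0.290), Gbp9 (0.381) and Irgm2 (0.581) were past the fold downwards in MASH-Phe-free over MASH (5.19% of 10663 genes), and MASH-Phe-free cells had a median of 15455 UMIs. With clusters weighted alike Gbp9 was at 1.25 and Irgm2 at 1.24 in this comparison. In plasma-like cells, Gbp2 was past the fold upwards in MASH-Phe-free over MASH (2.0, on 41 and 15 UMIs; 4.79% of 8907 genes) and Gbp4 downwards (0.503; 2.54%). Gbp2 was at 0.937 there with interferon genes among the variable genes, and Gbp4 at 1.01 with cells weighted alike. Igtp in platelet-like cells was past it downwards in MASH-Phe-free over MASH (0.518; 23.5% of 650 genes), but at 1.22 with cells weighted alike and 1.04 when the libraries were clustered separately. Plasma cell markers summed to 17769 CPM in MASH-Phe-free and 153 CPM in MASH platelet-like cells, and erythroid markers to 668 and 18700 CPM; their part in the ratio was not tested.

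Other genes had a pattern like the summed member level across the 10 classes and 3 libraries. Over these 30 points, the 8 genes with the highest Pearson correlation on log2(CPM + 10), among 9722 genes, were Klf3 (r = 0.865), Stat5b (0.858), Dnm2 (0.849), Dop1b (0.848), Mier1 (0.847), Maf1 (0.841), Cfl1 (0.835) and Stag2 (0.834). The points share libraries and classes, so this is a description of likeness only. Single members correlated with the sum of the other 9 from r = 0.149 for Igtp to r = 0.732 for Gbp7.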

How the data were processed

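Single-cell RNA of 3 mouse spleen libraries, 1 per group, was measured with a 5′ Chromium kit, per the labels' protocols. The deposited matrices hold whole-number UMI counts of each gene in each barcode, and other deposited columns hold gene identifiers, gene symbols and barcodes, per the file headers and values. The submitters' processing notes name Cell Ranger 9.0.1, Seurat 5.3.0 and GRCm39; the sources used here give neither the annotation nor the treatment of reads shared by related genes.

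Clustering used scanpy 1.11.5, igraph 0.11.9 and scikit-learn 1.9.0 in Python 3.11.15; intervals used scipy 1.17.1, tables pandas 2.3.3 with numpy 2.4.6, and figures matplotlib 3.10.9. Barcodes with at least 300 genes, 500 UMIs and at most 10% mitochondrial UMIs were kept, which left 15864 MASH-Phe-free, 17651 MASH and 15984 Chow barcodes. Scrublet removed 285, 321 and 337 of them as doublets (1.80%, 1.82% and 2.11%), low shares for libraries of this size, so doublets remain. Cells of all libraries were normalised and projected on 30 principal components of 2000 variable genes. Listed interferon genes, sex-linked genes and immunoglobulin, T cell receptor, haemoglobin, mitochondrial and ribosomal genes were left out. Leiden clustering, with unnamed or ambiguous clusters of at least 60 cells divided once more, gave 69 clusters. Classes of at least 300 cells were then clustered again into sub-clusters. Clusters were named from fixed marker lists when at least 3 markers were raised over the other cells. The 5 leading markers of a cluster also had to reach a mean log2 fold of at least 1.5. Subsets, such as mature neutrophil-like cells, were named by a looser rule, against the other cells of their class. Their 2 leading markers had to reach a mean log2 fold of at least 0.5, and to lead the next subset by at least 0.3. At least 3 subset markers had to be raised, or fewer for the shortest lists. Sub-clusters led by markers of another class (1529 MASH-Phe-free, 1179 MASH and 946 Chow cells) and unnamed clusters (761, 1557 and 921 cells) entered no class. Haemoglobin genes did not count as markers of another class, so the haemoglobin-led sub-cluster stayed among the mature neutrophil-like cells. Raw counts were summed per class and library and given as CPM of all UMIs of the class. Classes with fewer than 50 cells in any library were not compared.

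All 10 members are named in every class; of each other list, the counts past the fold and at most 3 genes with the highest and lowest ratios at 30 CPM or more are named; for likeness, the 8 genes with the highest correlation are named. Members and lists were chosen with earlier results of these data known, so no list gives independent support. The counting procedure was tested on simulated data. Alternatives covered scaling, weighting of cells and clusters, filters, doublets, clustering, marker gates, the fold, the UMI minimum and the cells with the most member UMIs. Those on mixed sub-clusters, pancreatic enzyme UMIs, shared barcodes, the Ifit3-led sub-cluster and thinning to 1000 UMIs were chosen after seeing the data. One gene of the signalling list is counted but not reported here by name.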

Additional observations from a re-analysis of the deposited data

Results flagged for a closer look

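The direction of MASH over Chow differed between cell classes for 2 members. Gbp3 had ratios of 2.67 in cDC-like, 4.05 in neutrophil-like and 1.56 in mature neutrophil-like cells, against 0.648 in erythroid-like cells. Gbp5 had ratios of 6.85 in neutrophil-like and 2.83 in mature neutrophil-like cells, against 0.245 in erythroid-like cells. The Gbp3 contrast turned round with clusters weighted alike, at 0.772 in neutrophil-like and 0.748 in mature neutrophil-like cells against 1.49 in erythroid-like cells. In MASH-Phe-free over MASH, Gbp2 had a ratio of 2.0 in plasma-like cells and 0.253 in neutrophil-like cells. The first rests on 41 UMIs in MASH-Phe-free and 15 in MASH and was 0.937 with interferon genes among the variable genes; the second was 1.02 with clusters weighted alike. With 1 library per group these differences between classes were not tested.

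Classes with fewer than 50 cells in a library entered no comparison and also held member UMIs. In progenitor-like cells the MASH over Chow ratios were 2.22 for Gbp2, 1.87 for Gbp7 and 1.57 for Irgm1, and in basophil-like cells Igtp was at 2.46. In stroma-like cells the MASH-Phe-free over Chow ratios were 30.7 for Gbp2, 15.9 for Gbp3, 2.78 for Gbp4, 4.15 for Gbp7, 11 for Igtp and 6.41 for Ifi47. Of the 871 member UMIs in 20 MASH-Phe-free stroma-like cells, 1 cell held 839 (96.3%).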

How the results depend on the processing

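Under 17 alternatives, Gbp4 in mature neutrophil-like cells kept a MASH over Chow ratio between 3.40 and 13. Its MASH-Phe-free over MASH ratio lay between 0.101 and 0.208, and Gbp5 kept the same direction in both comparisons. The fold of 2, the minimum of 20 UMIs and no minimum change only the call, so no ratio could move under them. The counts of members past the fold in these cells were lower without the Ifit3-led sub-cluster, with 2 upwards in MASH over Chow (6 as reported) and 1 downwards in MASH-Phe-free over MASH (4 as reported). There, Gbp3 (0.894), Gbp7 (0.869) and Ifi47 (0.703) changed side in MASH over Chow and Ifi47 (1.38) in MASH-Phe-free over MASH. With clusters weighted alike the counts were 1 upwards and 1 downwards in MASH over Chow and 1 downwards in MASH-Phe-free over MASH; Gbp2 (0.958), Gbp3 (0.748), Gbp7 (0.803) and Ifi47 (0.576) changed side in the first and Ifi47 (1.12) in the second. A fold of 2 left 2 and 2. The MASH-Phe-free over MASH count was 9 with each library clustered on its own, 9 with interferon genes among the variable genes, 7 with marker gates and 7 with the median gene at a ratio of 1. Shares over all genes are not given under these alternatives.

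In the whole neutrophil-like class, clusters weighted alike turned MASH over Chow for Gbp2 (0.972), Gbp3 (0.772), Gbp7 (0.827), Ifi47 (0.595), Igtp (0.897), Irgm1 (0.753) and Irgm2 (0.790). They turned MASH-Phe-free over MASH for Gbp2 (1.02), Gbp7 (1.01), Ifi47 (1.09), Igtp (1.10), Irgm1 (1.01) and Irgm2 (1.04). In erythroid-like cells the same weighting turned Gbp3 (1.49), Gbp4 (0.232) and Gbp9 (0.176) in MASH over Chow and Gbp9 (1.25) and Irgm2 (1.24) in MASH-Phe-free over MASH, and Gbp7 in cDC-like cells (1.09). Cells weighted alike turned Gbp4 (0.895) and Gbp9 (0.344) in erythroid-like cells in MASH over Chow. In MASH-Phe-free over MASH they turned Gbp9 there (1.41), Gbp4 in plasma-like (1.01), Gbp7 in cDC-like (1.06) and Igtp in platelet-like cells (1.22). Clustering each library on its own turned Gbp4 (0.788) and Gbp9 (0.546) in erythroid-like cells and Igtp in platelet-like cells (1.04). Interferon genes among the variable genes turned Gbp2 in plasma-like cells (0.937).

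Over the 10 classes, 16 member and class pairs were past the fold upwards and 2 downwards in MASH over Chow, 1 and 17 in MASH-Phe-free over MASH, and 4 and 2 in MASH-Phe-free over Chow. Clusters weighted alike gave 4 and 6, 2 and 2, and 2 and 5. No share over all genes was computed for these pooled pairs. All 10 neutrophil-like pairs are among the upward pairs in MASH over Chow and the downward pairs in MASH-Phe-free over MASH. In that class 15.2% of all genes were past the fold upwards and 22.0% downwards in MASH over Chow. In MASH-Phe-free over MASH 17.3% were downwards and 22.1% upwards, and the part of the immature shares in these ratios was not tested. Downward pairs in MASH over Chow numbered 4 with cells weighted alike and 1 with a fold of 2, the median gene at 1, the stricter cell filter, or abundant gene classes left out of the total. Upward pairs in MASH-Phe-free over MASH numbered 5 with cells weighted alike, 3 with each library clustered on its own, 2 with marker gates, the stricter cell filter, abundant gene classes left out, no pancreatic enzyme UMIs or no shared barcodes, and 0 with a fold of 2, interferon genes among the variable genes or without the top 1% of cells. In MASH-Phe-free over Chow upward pairs numbered 9 with each library clustered on its own, 8 with marker gates, 2 with interferon genes among the variable genes and 1 with a fold of 2. Downward pairs there numbered 5 with cells weighted alike or each library clustered on its own, and 4 with interferon genes among the variable genes, mixed sub-clusters kept, the stricter cell filter or no pancreatic enzyme UMIs. The causes were not tested. No paired analysis was possible because each group is 1 library and the results come from no test; for the same reason no replicate could be left out. Depth limits Gbp4 in mature Chow neutrophil-like cells, which rests on 14 UMIs, and most members in platelet-like cells.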

Other observations

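B-like subsets differed in which members they held, within each library. Transitional B-like cells, recent arrivals from the bone marrow, held the most Gbp2 of these subsets, at 49.9 CPM in MASH-Phe-free, 39.7 CPM in MASH and 40.1 CPM in Chow, against 10.9, 12.7 and 16.7 CPM in germinal centre B-like cells. Gbp5 was higher in marginal zone B-like cells (51.3, 50.7 and 49.0 CPM) than in transitional B-like cells (19.9, 20.6 and 25.6 CPM). Ifi47 was at 146, 141 and 109 CPM in transitional B-like and at 48.2, 49.2 and 41.9 CPM in B1 B-like cells, so transitional B-like cells were the higher of this pair in all 3 libraries. The B1 name is weakly borne out. Of its 8 markers, 5 were higher than in all other cells, with a median fold of 1.30 and Cd5 at 0.162. Of the 6 transitional markers, 5 were higher, with a median fold of 2.23 and Spn at 0.106. In B1 B-like cells, Gbp4 was at 20.2 CPM in MASH and 12.8 CPM in Chow (ratio 1.58). Of all 9332 genes tested there in MASH over Chow, 2.71% were past the fold upwards and 2.89% downwards. In the whole B-like class no member was past it in this comparison.

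In NK-like cells Irf8, an interferon-regulated transcription factor of the listed pathway, held 310 CPM in MASH-Phe-free, 531 CPM in MASH and 246 CPM in Chow, while no member was past the fold there in MASH over Chow. The receptor chain Ifngr2 was close to 0 in NK-like cells, with 3, 4 and 1 UMIs, and Ifngr1 held 476, 516 and 607 CPM.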
